A study of Homo sapiens with 12 samples.

Results

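The genes described here are the replication-dependent histone genes, which encode the linker histone H1 and the core histones H2A, H2B, H3 and H4. They were chosen by symbol from the RefSeq gene table for GRCh38.p14, as autosomal protein-coding genes whose symbol starts with H2AC, H2BC, H3C or H4C and a number, or is one of H1-1 to H1-6. The rule gave 70 of 19126 autosomal protein-coding genes: 6 for H1, 17 for H2A, 19 for H2B, 13 for H3 and 15 for H4. Chromosome 6 held 55 of them, chromosome 1 held 13, and chromosomes 12 and 21 held 1 each.

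The study asked how migration through collagen of rising density changes chromatin accessibility in HT1080 cells, an established human fibrosarcoma line. Accessibility was measured by ATAC-seq, in which a transposase cuts and tags open DNA. The 12 libraries fell into 3 groups of 4, from cells kept for 48 h in rat tail type-I collagen at 0.3 mg/mL (low), 1 mg/mL (medium) or 1.7 mg/mL (high). All 3 groups received 20 µM GM6001, an inhibitor of matrix metalloproteinases, so none of them shows these cells without the inhibitor. Per the labels, cells were freed from the gel with collagenase and frozen before the assay. The deposited peak list pooled the libraries and named none, so no value below compares concentrations, none has a replicate, and the depth of each library is unknown.

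Replication-dependent histone genes are short, lack introns in their main transcripts and are transcribed in S phase, when new DNA must be packed into nucleosomes. Their mRNAs end in a stem-loop in place of a poly(A) tail. Many H2A and H2B genes lie head to head and share the DNA between them as a promoter. Well-known promoter elements are the TATA box, the CCAAT box bound by NF-Y, the octamer bound by POU2F1 at H2B genes, the AC box of H1 genes and the element bound by HINFP at H4 genes.

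The following RefSeq sequences (GRCh38.p14) show promoters with and without a deposited call of accessibility, named a site here, and near-identical copies. A promoter without a site is not shown to be closed. The sequences stop at the annotated start. Capitals mark 6 motifs searched for on both strands. They were the TATA box, searched as TATAAA, and the NF-Y box, searched as CCAAT. The octamer was searched as ATTTGCAT. For E2F sites the search used TTTCGCG, or the variant form TTTGGCG. The AC box of H1 genes was searched as AAACACA, and part of the HINFP element of H4 genes as GGTCC. The first pair compares DNA between head-to-head genes, at chr6:27132796-27133042 with a strong site and at chr6:25726563-25726776 with none, both on the plus strand.
H2AC11 and H2BC11: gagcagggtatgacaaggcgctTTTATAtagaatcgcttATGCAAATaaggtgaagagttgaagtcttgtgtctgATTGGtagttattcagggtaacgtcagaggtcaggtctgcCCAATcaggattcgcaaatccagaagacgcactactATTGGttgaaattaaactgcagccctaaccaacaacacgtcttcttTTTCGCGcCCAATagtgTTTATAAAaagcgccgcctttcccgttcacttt
H2AC1 and H2BC1: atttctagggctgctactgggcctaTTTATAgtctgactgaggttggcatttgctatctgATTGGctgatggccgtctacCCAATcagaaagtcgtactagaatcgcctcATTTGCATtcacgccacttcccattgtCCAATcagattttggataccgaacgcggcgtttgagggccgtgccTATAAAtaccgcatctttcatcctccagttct

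The next pair gives 150 bases before the start of H1 genes, on the minus strand, at chr6:26056471-26056620 with a site and at chr6:26234988-26235137 without.
H1-2: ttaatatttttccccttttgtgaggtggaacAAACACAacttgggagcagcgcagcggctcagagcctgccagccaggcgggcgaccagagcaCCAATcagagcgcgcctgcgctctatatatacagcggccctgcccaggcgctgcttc
H1-3: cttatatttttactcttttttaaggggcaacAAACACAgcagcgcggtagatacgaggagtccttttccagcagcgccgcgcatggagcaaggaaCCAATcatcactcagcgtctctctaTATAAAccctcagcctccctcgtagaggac

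The last set gives 250 bases before the start of H4 genes. H4C11 (chr6:27823842-27824091, plus strand) and H4C12 (chr6:27831561-27831810, minus strand) are near-identical copies. H4C14 (chr1:149832407-149832656, plus strand) has a copy of the same sequence at H4C15, and H4C6 (chr6:26240143-26240392, plus strand) had no site.
H4C11: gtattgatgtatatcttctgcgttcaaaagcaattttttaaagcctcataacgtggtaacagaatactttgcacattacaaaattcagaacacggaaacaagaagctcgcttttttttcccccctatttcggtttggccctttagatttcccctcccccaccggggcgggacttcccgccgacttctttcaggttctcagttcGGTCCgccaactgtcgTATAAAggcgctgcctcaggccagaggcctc
H4C12: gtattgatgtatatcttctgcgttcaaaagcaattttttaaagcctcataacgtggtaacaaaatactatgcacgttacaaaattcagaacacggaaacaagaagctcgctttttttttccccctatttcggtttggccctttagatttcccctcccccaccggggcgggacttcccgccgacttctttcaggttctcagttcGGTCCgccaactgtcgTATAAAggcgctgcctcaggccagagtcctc
H4C14: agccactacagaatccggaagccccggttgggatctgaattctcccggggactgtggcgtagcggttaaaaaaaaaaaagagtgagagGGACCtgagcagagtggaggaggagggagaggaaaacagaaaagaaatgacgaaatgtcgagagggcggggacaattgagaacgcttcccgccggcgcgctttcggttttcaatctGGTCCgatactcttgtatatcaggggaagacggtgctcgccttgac
H4C6: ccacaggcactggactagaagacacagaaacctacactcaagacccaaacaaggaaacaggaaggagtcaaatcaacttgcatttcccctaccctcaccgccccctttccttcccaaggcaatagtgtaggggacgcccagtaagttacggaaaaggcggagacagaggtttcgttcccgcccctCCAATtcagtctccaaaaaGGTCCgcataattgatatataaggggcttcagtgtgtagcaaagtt

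Of the 70 histone genes, 46 (65.7%) had a deposited summit within 1000 bp of a gene end, and 24 had none. Over all autosomal protein-coding genes the share was 66.6%, so the histone genes were near the background at this distance. With summits anywhere in the gene counted as well, a choice made after seeing the data, the shares were 65.7% and 83.7%. Histone genes had a median length of 494 bp and coding genes of 24476.5 bp. A summit is a local maximum of signal in a called interval, and an interval can hold several. The authors' enrichment at a summit is the fold over the local background used in peak calling, and a gene is described by its highest one. With the annotated start alone, 42 of the 64 histone genes with a start in the RefSeq promoter table had a summit within 1000 bp (65.6%), beside 68.5% of coding genes. A gene without a summit is one with no summit in a list whose q-values reach up to 0.05, and is not shown to be closed.

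The enrichments were lower than those of coding genes in general, while the fragment pileups were not. The median top enrichment of the 46 genes was 7.30 (range 2.78 to 13.9), beside 11.7 over the 12733 coding genes with a summit. Only H2BC5, H4C3 and H4C8, 3 of 46, lay above that coding median. The pileup, the depth of overlap recovered from the enrichment and the p-value, had a median of 868.5 at histone genes and 753 at coding genes. In 28 of the 46 it lay above the coding median. Its unit is called fragments here, although the sources used do not say whether fragments or single reads were counted. The local background had medians of 125.8 and 63.6 fragments. The ratio of the medians was thus 0.625 for enrichment, 1.15 for pileup and 1.98 for background. No test was made of these differences, since the list has no replicates. Histone genes lie close together, and the part of neighbouring sites in the local background was not tested.

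**Figure D1:**
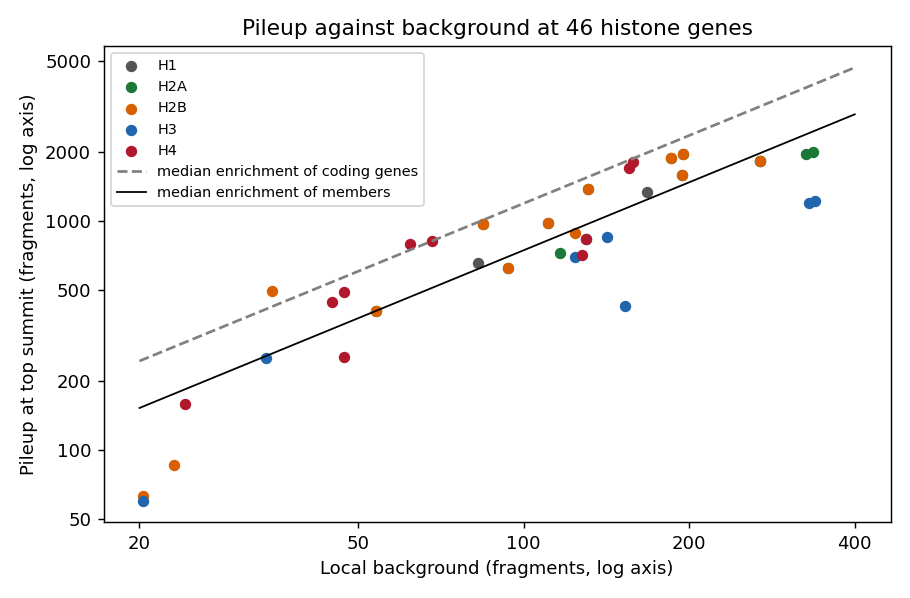
Pileup at the top summit (fragments, log axis) against the local background (fragments, log axis) for the 46 histone genes with a summit, coloured by histone type. The solid line marks the members' median enrichment of 7.30 and the dashed line the coding median of 11.7. Most points lie below the dashed line, and points of an H2A and an H2B gene with 1 summit in common coincide.

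Neighbouring histone genes often had a summit in common. The 46 genes were covered by 48 distinct summits, and their top summits were 35. In 25 genes the top summit also lay within 1000 bp of an end of another histone gene. One summit stood near 3 of them, H2BC21, H2AC20 and H2AC21 on chromosome 1, where 1832 fragments gave a 6.79-fold enrichment. Of the 46 genes, 29 had 1 summit, 14 had 2 and 3 had 3. The values of such neighbours are therefore not independent.

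**Figure D2:**
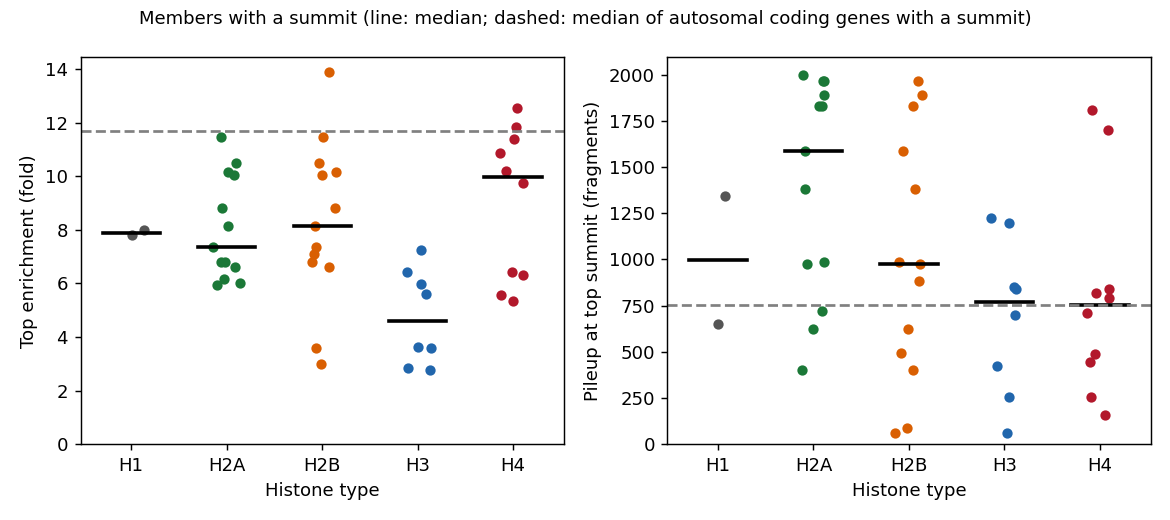
Top enrichment (fold, left) and pileup at that summit (fragments, right) for each histone gene with a summit, by histone type. Black lines are medians and the dashed line is the median of autosomal coding genes with a summit. The H3 genes have the lowest median enrichment, 4.62, and the H4 genes the highest, 9.96.

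H4 forms a tetramer with H3 at the core of the nucleosome. Of 15 H4 genes, 10 (66.7%) had a summit, beside 66.6% of coding genes. Their median top enrichment was 9.96 (range 5.33 to 12.5) and their median pileup 752. H4C3 was the highest, at 12.5 with 791 fragments, inside the called interval chr6:26103384-26104689. H4C8 followed with 11.8 and 818 fragments. Ends of the noncoding RNA gene LOC124901287 and of a transfer RNA gene lay within 1000 bp of the H4C8 summit. H4C15 had 11.4, H4C14 10.9, H4C11 10.2 and H4C5 9.73. These 6 genes formed the upper part of the H4 range.

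At the lower end, H4C1 had an enrichment of 6.43, H4C12 of 6.31 and H4C2 of 5.55. The lowest was H4C16, the only member on chromosome 12, with 5.33 and a pileup of 255. An end of the coding gene LOC105369669 lay within 1000 bp of that summit. No summit was near H4C4, H4C6, H4C7, H4C9 or H4C13.

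H3 genes had the lowest enrichments of the 5 types. A summit was near 8 of 13 (61.5%), beside 66.6% of coding genes. The median top enrichment was 4.62 (range 2.78 to 7.26) and the median pileup 769.5. H3C4 had 7.26, with only 253 fragments over a background of 34.0. H3C1 had 6.43, from a summit that also lay near H4C1, and 5.40 at its own start. H3C2 had 5.98 and H3C3 5.62. H3C14 and H3C15 had 3.60 and 3.62 over backgrounds of 338.5 and 330.1 fragments. Their pileups, 1222 and 1196, were the highest of the H3 genes.

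H3C13, with 2.86, and H3C10, with 2.78, were the lowest of all members. They reached this in different ways, with 60 fragments over a background of 20.3 at H3C13 and 426 over 152.8 at H3C10. H3C6, H3C7, H3C8, H3C11 and H3C12 had no summit.

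H2A and H2B form the dimers that flank the H3-H4 tetramer. Of 17 H2A genes, 13 (76.5%) had a summit, beside 66.6% of coding genes. The median top enrichment of the 13 was 7.35 (range 5.94 to 11.5). Their median pileup, 1589, was the highest of the types. H2AC15 led with 11.5, followed by H2AC25 with 10.5 and H2AC12 with 10.1. H2AC18 had 5.94, H2AC19 6.002 and H2AC4 6.17, the lowest values. H2AC21 had 6.79 from the summit between H2AC20 and H2BC21, and only 3.98 with 1066 fragments at its own start. H2AC1, H2AC7, H2AC16 and H2AC17 had no summit.

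Of 19 H2B genes, 13 (68.4%) had a summit, beside 66.6% of coding genes. The median top enrichment of the 13 was 8.15 (range 3.00 to 13.9) and the median pileup 975. H2BC5, annotated over 13229 bp, had the highest enrichment of all members, 13.9, with 496 fragments. That summit lay 634 bp from the end of the gene farther from its start and near an end of the antisense RNA gene H2BC6-AS1. At its own start H2BC5 had 7.98 and 1345 fragments. H2BC15 had 11.5 and H2BC26 10.5, from summits that their H2A neighbours had in common with them.

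The lowest H2B values were 3.00 at H2BC18, 3.60 at H2BC17 and 6.61 at H2BC14. The H2BC17 summit lay past the end of the gene farther from its start, and no summit was within 1000 bp of that start. H2BC1, H2BC6, H2BC7, H2BC9, H2BC10 and H2BC12L had no summit. H2BC12L is the only member on chromosome 21, and its nearest summit was 20590 bp away.

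H1 binds the linker DNA between nucleosomes. A summit was near 2 of the 6 H1 genes (33.3%), the lowest share of the types, beside 66.6% of coding genes. With 6 genes, that share rests on few members. H1-2 had an enrichment of 7.82 with 653 fragments, 56 bp after its start. H1-4 had 7.98 with 1345 fragments, but from the summit at the start of its neighbour H2BC5. Near its own start H1-4 had 4.67 with 795 fragments. H1-1, H1-3, H1-5 and H1-6 had none.

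The testis histone genes H2AC1 and H2BC1 were far from any call. Their nearest summits were 54782 and 55496 bp away. H1-6, another testis histone gene, had its nearest at 3468 bp, and H1-1 at 2736 bp.

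The distance of 1000 bp affected few genes. Just inside it were H2BC17 at 609 bp from its nearest summit, H3C4 at 460 bp and H2BC18 at 352 bp. These distances are to the ends of the gene span, and the H3C4 summit lay 42 bp after 1 of its 2 annotated starts. Just outside were H2AC17 at 1315 bp, H2AC7 at 1540 bp and H2BC7 at 2272 bp.

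Members less than 200 kb apart were taken as 1 cluster, which gave 8. On chromosome 1 from 149782689 to 149887965, all 11 members had a summit, beside 66.6% of coding genes. H4C14 and H4C15, H2AC18 and H2AC19, and H3C14 and H3C15 are near-identical copies, whose reads may not be told apart. The 11 calls may therefore not be separate observations. The enrichments of the 11 members had a median of 6.002 (range 2.86 to 11.4) and their backgrounds a median of 268.8 fragments. H2BC18 and H3C13, which had the fewest fragments of the cluster, 63 and 60, lay next to each other. H3C14 and H3C15 also had low enrichments but far more fragments. The H2AC25 and H2BC26 pair, on chromosome 1 from 228457364 to 228458558, had 1 top summit in common, with 10.5 and 1384 fragments.

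On chromosome 6, 32 of 55 members had a summit, beside 66.6% of coding genes. The cluster from 26017032 to 26285534 held 32 members, of which 18 had one, with a median enrichment of 7.35. The cluster from 27132316 to 27147562 had 4 of 5, with enrichments of 10.1 at both H2A-H2B pairs and pileups of 1968 and 1893, and none at H4C9, which lies inside the annotated span of H2BC12. The cluster from 27807479 to 27893891 had 10 of 16, with a median of 7.71. The H2AC1 and H2BC1 pair, from 25726063 to 25727345, had none.

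Many genes without a summit lay side by side, although H1-1, H1-6, H4C9 and H2BC12L were each the only member in a region without an interval. No interval was called over 67.2 kb of chromosome 6 from 26217899 to 26285081, which held 8 members: H3C6, H1-3, H4C6, H4C7, H3C7, H2BC9, H3C8 and H2BC10. H2AC8 and H2BC8 on one side, with an enrichment of 7.35, and H4C8 on the other, with 11.8, bordered it. A second such region of 55.3 kb, from 27839086 to 27894352, held H2AC16, H1-5, H3C11, H4C13, H3C12 and H2AC17, all without a summit. H2BC17 also lay inside it, and its only summit, 609 bp from a gene end, was just beyond the border of the region. These regions held 14 of the 24 genes without a summit. Gaps of that length were common on chromosome 6 as a whole: of 4273 between neighbouring intervals, 837 (19.6%) were at least 50 kb long. That share takes all gaps whatever genes they hold, and gaps as rich in genes as these were not counted apart.

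**Figure D3:**
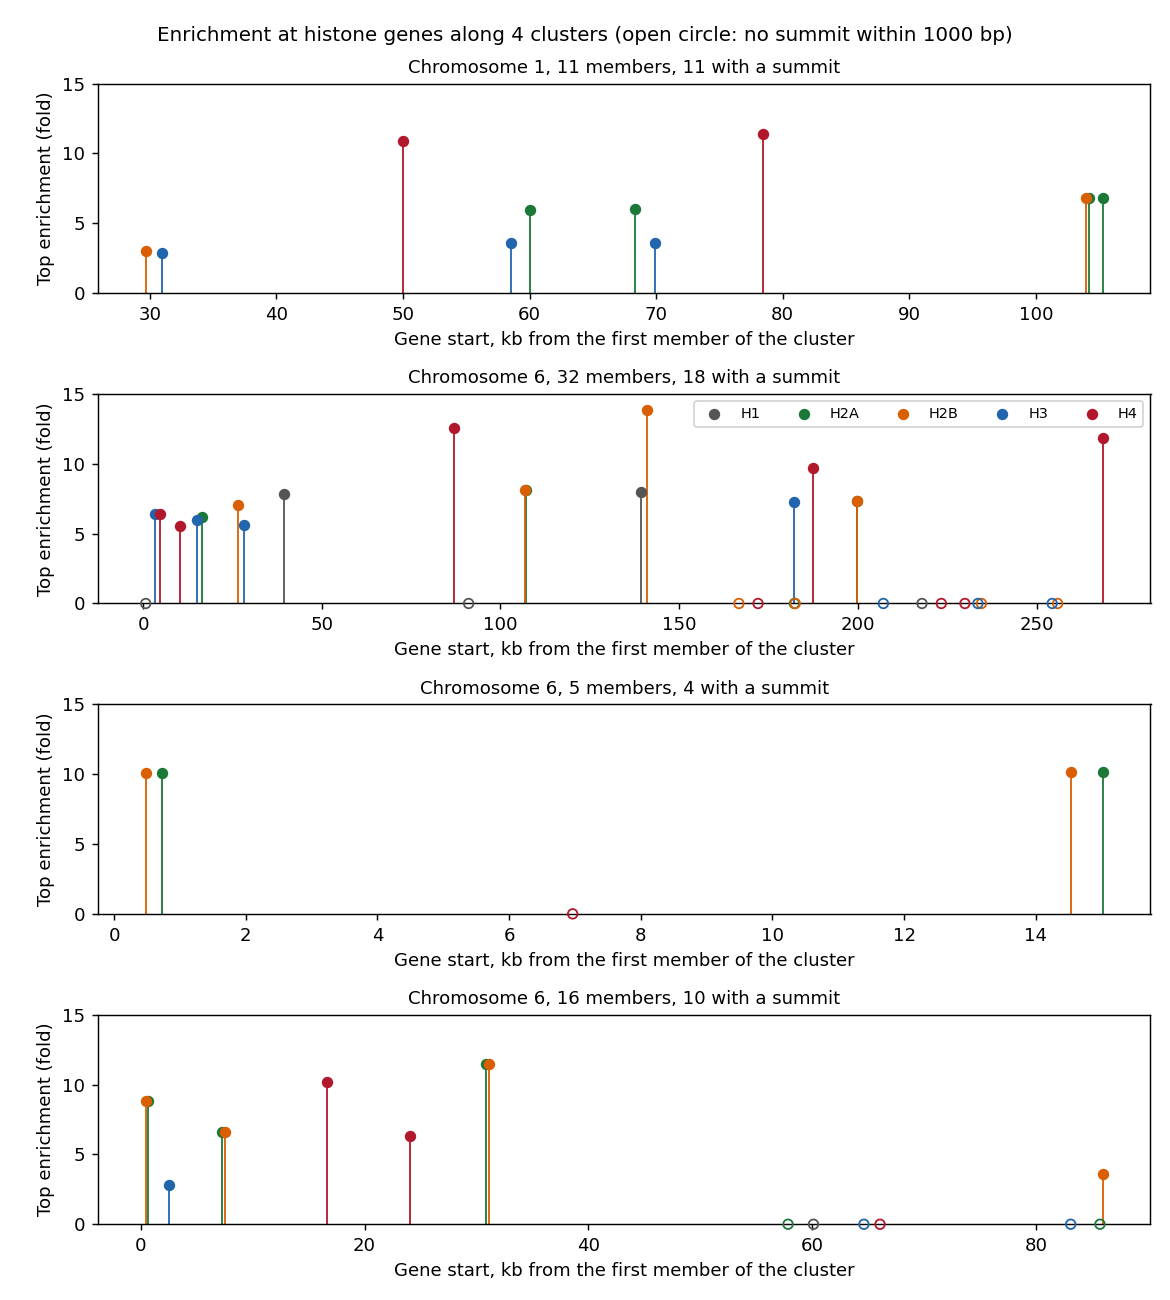
Top enrichment (fold) of each histone gene against the position of its start, in kb from the first member of the cluster (the midpoint stands in for genes without an annotated start), for the 4 clusters of at least 5 members. Filled circles are coloured by type, and open circles at 0 are genes with no summit within 1000 bp. All 11 genes of the chromosome 1 cluster are filled, and open circles stand together in the right-hand parts of the clusters with 32 and 16 members.

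The head-to-head H2A and H2B genes were examined as pairs. There were 12 neighbouring H2A and H2B genes less than 500 bp apart, with 193 to 247 bp between them (median 237). A summit lay between the genes in 9 pairs, with a median enrichment of 8.81 (range 6.61 to 11.5) and a median pileup of 1384 (range 403 to 1968). The pairs without one were H2AC1 with H2BC1, H2AC7 with H2BC7 and H2AC17 with H2BC17. Of the 12 H2A and H2B genes outside these pairs, 7 had a summit.

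The summit was not always central in the shared DNA. It lay nearer the H2A gene in 6 pairs and nearer the H2B gene in 3. The median distance was 67 bp to the H2A gene and 152 bp to the H2B gene. It was 22 bp from H2AC13 and 222 bp from H2BC13, and 182 bp from H2AC11 and 66 bp from H2BC11. By enrichment the highest pair was H2AC15 with H2BC15, at 11.5 with 975 fragments, followed by H2AC25 with H2BC26, at 10.5 with 1384. By pileup the highest were H2AC11 with H2BC11, at 1968 fragments, and H2AC12 with H2BC12, at 1893. H2AC8 with H2BC8 had the fewest fragments, 403, with an enrichment of 7.35.

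Where the summit lay relative to the start varied with histone type. In 40 of the 42 genes with a summit near a start, it was within 250 bp. It lay before the start in 23 of 24 H2A and H2B genes, with medians of -56 bp for H2A and -107 bp for H2B. At H4 genes it lay at or after the start in 6 of 8, between -6 and 144 bp (median 27.5). At H3 genes it did so in 5 of 8 (median 33.5 bp), and at both H1 genes, at 56 and 72 bp. Over 10341 coding genes the median was -60 bp, and 72.2% lay before the start. Because head-to-head genes have the same summit, the 24 H2A and H2B genes are not independent, and no test was made.

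**Figure D4:**
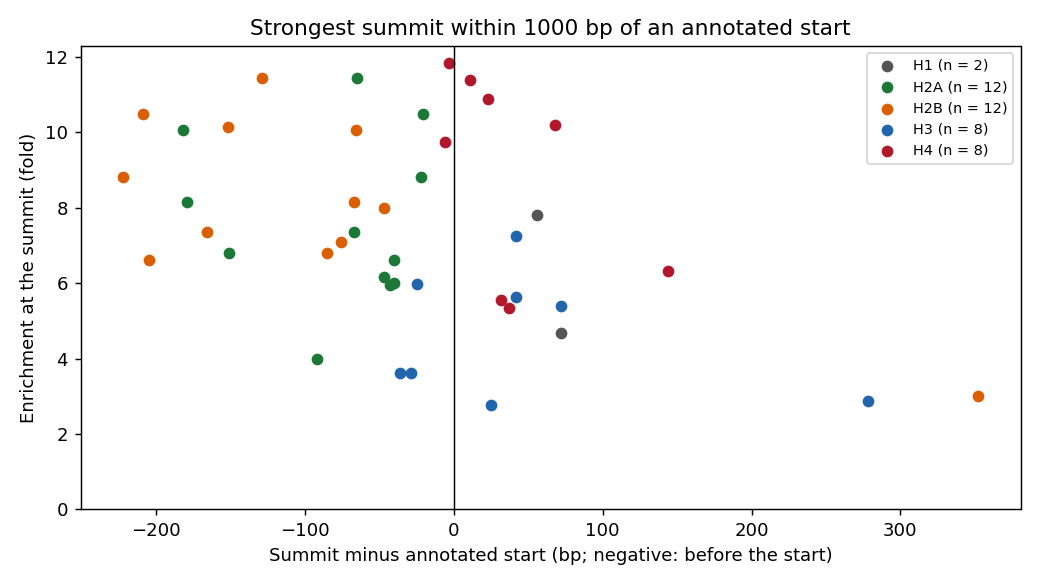
Enrichment (fold) at the strongest summit near an annotated start against its distance from the start (bp, negative before the start), for 42 histone genes by type. H2A and H2B points lie to the left of 0 except for H2BC18 at 352 bp, and most H4 points lie at or to the right of it.

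Promoter motifs were counted by histone type and by whether a summit lay near the start. The windows ran from 250 bases before to 50 after each start, in 64 members and 15101 autosomal coding genes, and a gene counted if any of its windows held the motif. CCAAT was present in all 6 H1, 16 H2A, 18 H2B and 11 H3 genes, and in 3 of 13 H4 genes, beside 41.8% of coding genes. GGTCC was present in 12 of 13 H4 genes, beside 57.8%, and in 1 of 16 H2A genes. AAACACA was present in all 6 H1 genes and in 3 others, H2AC20, H3C14 and H3C15, beside 5.87%. H1-1, H1-3, H1-5 and H1-6 carried both the CCAAT and the AAACACA letters and had no summit.

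The octamer ATTTGCAT occurred in 14 of 18 H2B and 11 of 16 H2A genes, beside 2.19% of coding genes. It was absent from H1 and H4 windows, and the 1 H3 gene with it, H3C4, has an annotated start at the same base as H2AC7. TATAAA was found in 43 of 64 members (67.2%), beside 12.5%. Among H2B genes the octamer was in 8 of 12 with a summit near the start and in all 6 without. TATAAA was in 31 of 42 members with a summit near the start and in 12 of 22 without. E2F letters were in 14 of 64 members, beside 5.17% of coding genes. A match is a description of letters only. Head-to-head genes lie so close that their windows overlap.

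**Figure D5:**
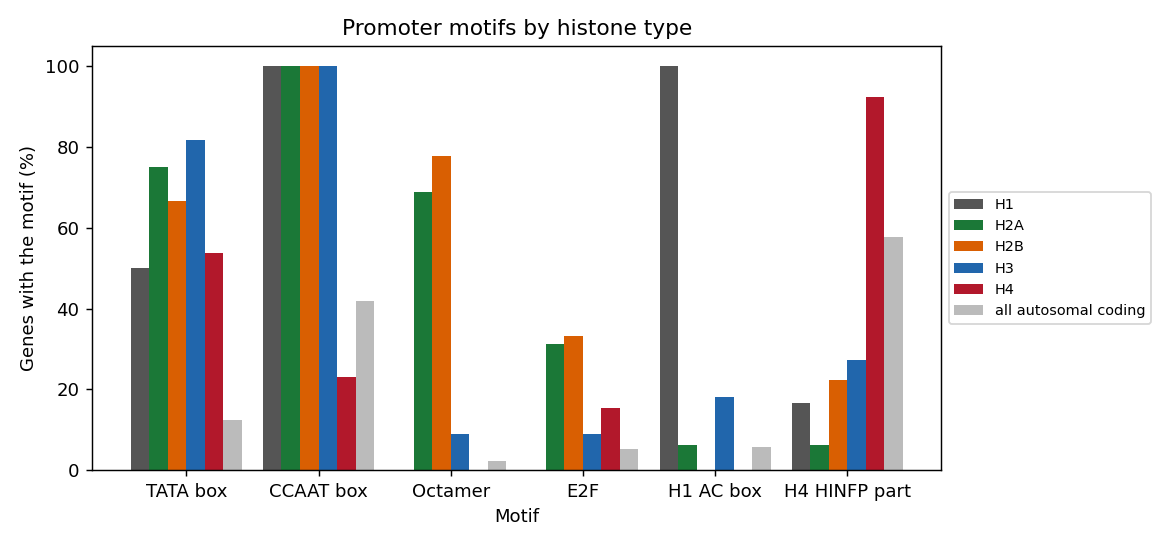
Share of genes (%) with each motif in the promoter window, by histone type and for all 15101 autosomal coding genes in grey. CCAAT reaches 100% in H1, H2A, H2B and H3 and 23.1% in H4, while the HINFP letters reach 92.3% in H4.

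Several members are near-identical copies, so their reads may not be told apart. How such reads were placed is not given in the sources used here. The 300-base windows of H4C14 and H4C15 were identical, with pileups of 1701 (95% Poisson interval 1621 to 1784) and 1810 (1728 to 1895). H2AC18 and H2AC19 differed by 2 edits and had 1998 and 1964 fragments. H3C14 and H3C15 differed by 8 edits and had 1222 and 1196. These 3 sets of copies on chromosome 1 thus had pileup ratios of 1.06, 1.02 and 1.02. The intervals cover counting error only, since the pooled list gives no spread between libraries. No molecular identifiers are named in the sources used here, so copies of 1 fragment may have been counted more than once.

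The H4C11 and H4C12 copies on chromosome 6 were unlike in signal. Their windows differed by 5 edits in 300 bases, all of them within the 250 bases printed above. Counted from 1 at the 5′ end of the printed sequence, with the H4C11 base first, they were G62A, T69A, A75G, C119T and G246T. H4C11 had 490 fragments (95% Poisson interval 448 to 535), an enrichment of 10.2 and an interval of 1146 bp. H4C12 had 158 (134 to 185), 6.31 and 333 bp. The pileups differed by a factor of 3.10 and the backgrounds, 47.2 and 24.2 fragments, by 1.95. Because the pair was chosen after its values were seen, the intervals are no test of the difference. The placement of reads between the copies was not tested. Each summit lay inside its gene, 68 bp after the start of H4C11 and 144 bp after that of H4C12, and both windows held GGTCC and TATAAA.

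Genes that act on histone genes and their products were read beside them. Of 19 genes for histone transcription and mRNA 3′ processing, all 19 had a summit, with a median enrichment of 14.3, beside the background of 66.6%. HINFP, which binds H4 promoters, had 18.5. NPAT, the coactivator of histone gene transcription, had 17.1. GON4L had 16.8, from a summit at 155745705, near the lower end of its span from 155745112 to 155859431. Either gene end counted in these lists, so a summit need not lie at a start. SLBP, which binds the stem-loop of histone mRNA, had 13.8, and CASP8AP2, a component of the histone locus body, had 15.2. LSM10, a subunit of the U7 particle that cuts histone mRNA, was the lowest with 4.34.

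All 12 histone chaperone genes had a summit, with a median of 15.6. Over all autosomal coding genes the share with a summit was 66.6% and the median enrichment 11.7. CABIN1 had 18.5, SPTY2D1 17.1 and HAT1, the acetyltransferase of newly made H4, 16.5. Of 12 replacement histone genes, which are expressed outside S phase as well, 10 had one, with a median of 11.7 and a median pileup of 1870. The highest were CENPA, the centromeric H3, with 16.6, H2AZ2 with 15.3 and H2AX with 12.9. MACROH2A2 and H3-5 had none. The lists were compared as descriptions, with no test.

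As a check of the labelled cell line, 5 of 6 mesenchymal marker genes had a summit, beside 66.6% of coding genes. FN1 had 15.1 and VIM 6.64, and THY1 had none. Of the markers of other lineages, CDH1, KRT5, PTPRC, PECAM1 and CDH5 had none. EPCAM had 2.11, and KRT8, CD3E and SPI1 had 12.7, 14.5 and 8.44. The CD3E summit, at 118316815, lay past the upper end of its span, 118316173. That of SPI1, at 47355385, lay near the lower end of its span, 47354860. Either gene end counted, so such a summit need not lie at a start. Accessible gene ends do not measure expression, so these values do not settle the identity of the cells.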

How the data were processed

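ATAC-seq summits were read from 1 deposited list with no header, pooled over 12 libraries (4 for each collagen concentration), with 188019 summits in intervals numbered 1 to 91278 without a break. The submitters' processing notes name hg38, fastp 0.20.0, Bowtie2 2.4.3, SAMtools, deepTools 3.5.0 and MACS2 2.2.7.1, without their roles. The deposited values are the authors' fold enrichment (a ratio), the −log10 p and q, a score derived from q, and the summit offset from the interval start. Depth per library is unknown.

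Pileup and background were solved from the authors' enrichment and −log10 p, taking enrichment as (pileup + 1)/(background + 1) and p as a Poisson tail. This model is not stated in the labels; it gave whole pileups, within 0.05, in 99.96% of lines and was tested on simulated data. The lowest background was 20.3 fragments. Names, starts and sequences came from RefSeq tables for GRCh38.p14; 64 of 70 members had a start. Calculations used Python 3.11.15, pandas 2.3.3 and SciPy 1.17.1.

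Members and lists were chosen with earlier results of these data known, so no test was made. Genes were named by rule: in each type the 3 highest and 3 lowest, all without a summit, those nearest the 1000 bp limit, members outside chromosomes 6 and 1, copies with identical promoters on chromosome 1 and testis-expressed genes, and in each list the 3 highest and those without a summit. Other genes named, H4C11 with H4C12 among them, and the windows printed were chosen after their values were seen. Alternatives were windows of 500 and 2500 bp, a −log10 q of at least 10, the strongest summit per interval, intervals of at most 10 kb, the start alone, the gene body and a cluster gap of 1000 kb.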

Additional observations from a re-analysis of the deposited data

How the results depend on the processing

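The number of histone genes with a summit was 46 as reported and lay between 42 and 49 over the alternatives, where coding genes gave between 10341 and 16003. The nearness of both shares depended on the setting. They were 64.3% of histone genes and 59.2% of coding genes at 500 bp, 70.0% and 76.0% at 2500 bp, and 65.7% and 60.8% with a −log10 q of at least 10. With a summit anywhere in the gene, an alternative chosen after seeing the data, they were 65.7% and 83.7%. The median top enrichment lay between 7.17 and 7.35 and the median pileup between 845.5 and 930. The number of genes whose top summit lies near another member moved from 25 to 38 with a window of 2500 bp and to 16 with the annotated start alone. A gap of 1000 kb lowered the number of clusters from 8 to 5. The other 36 values recomputed were counts within 1.5 times the reported one or medians within its 95% order-statistic interval. That interval treats the genes as independent, which genes with a summit in common are not, so its 95% level is nominal. Among the 36 values, the distinct summits near members fell from 48 to 34 with the strongest summit of each interval alone. No paired analysis was possible because the pooled list names no library, and for the same reason no library could be left out and the comparison between concentrations was not run. Depth limits what can be said of genes without a summit, since the lowest pileup in the list was 35 fragments.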

Other observations

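Histone pseudogenes of the same families, examined after the values of the coding genes were seen, had a summit near an end in 5 of 13 cases. The share over all pseudogenes was not computed, so this count cannot be called high or low. In 4 of the 5, H2BC19P, H2BC20P, H2AC5P and H4C10P, the strongest summit was also the top summit of a coding histone gene. H3C9P was the exception, at 9.24-fold with 1169 fragments. The pseudogenes H3C5P, H2AC9P and H2AC10P lay in the 67.2 kb region of chromosome 6 without an interval.

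Other coding genes overlapping the histone clusters were few. HFE, the gene of hereditary haemochromatosis, lies between H1-2 and H4C3 and was 2.30-fold enriched with 48 fragments. HSF2BP, which overlaps H2BC12L, had 13.3, and the uncharacterised LOC124904411 had 10.7. FCGR1A, an immunoglobulin receptor gene, and SLC17A1, a phosphate transporter gene that overlaps H2AC1 and H2BC1, had no summit near an end.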
